A study of Homo sapiens with 4 samples.

Results

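The regions described here are the 10794 H3K27ac peaks that the DU-145 library holds on chromosome 14, of 75468 peaks in that library and 251138 peaks in the lists of all 4 cell lines. They were chosen by chromosome alone, because earlier results of these data had shown many peaks there, so the number of peaks itself is given as a description and not as a test. The study profiled acetylation of lysine 27 of histone H3 by ChIP-seq in bulk chromatin of untreated cancer cell lines, to ask whether predicted regulatory mutations lie in active chromatin of the line that carries them. DU-145 is a prostate cancer line grown in Eagle minimal essential medium with serum, COLO-205 is a colon cancer line and OVCAR-3 is an ovarian cancer line, both grown in RPMI medium, and SKOV-3 is a second ovarian cancer line, grown in McCoy's 5a medium. There was 1 library per line and no replicate, so no value below has a replicate error and no difference between lines could be tested.

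H3K27ac marks nucleosomes at active promoters and enhancers, where it is written by the acetyltransferases CBP and p300 and removed by histone deacetylases. A narrow peak over a transcription start is the usual pattern of an active promoter, and peaks in introns and between genes are used to find candidate enhancers. Chromosome 14 is acrocentric, and its long arm alternates gene-rich stretches with long gene-poor ones. In a bulk library, more cells that carry the mark and more of the mark per cell cannot be told apart. The lists hold no measure of DNA copy number, and no value below was adjusted for it here.

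The label of DU-145 as an epithelial prostate line was compared with defining markers. All 4 epithelial markers (EPCAM, CDH1, KRT8 and KRT18) had a promoter peak in DU-145 and none of the 4 blood markers did. Of the prostate luminal markers reported here, KLK3, KLK2, TMPRSS2 and HOXB13 had none. No colon marker of 5 and 2 of 5 ovarian markers (MUC16 and MSLN) had a promoter peak in this library.

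To show what the sequence under these peaks looks like, the plus strand of GRCh37 (the build of the files) is printed at the summits of 6 peaks, in lower case with every CG dinucleotide in capitals and with annotated untranslated bases left out. The first lines are the strongest promoter peak of each of the 3 dense stretches described below, where a promoter peak is one that reaches within 1 kb of the gene start and its summit may lie further in, as at ARHGAP5 (1358 bases). The next is the strongest peak more than 1 kb from every annotated gene start, those of non-coding genes included. The last are the widest peak and the strongest promoter peak found in DU-145 alone.
ARHGAP5 promoter peak, chr14:32546642-32546827, intron: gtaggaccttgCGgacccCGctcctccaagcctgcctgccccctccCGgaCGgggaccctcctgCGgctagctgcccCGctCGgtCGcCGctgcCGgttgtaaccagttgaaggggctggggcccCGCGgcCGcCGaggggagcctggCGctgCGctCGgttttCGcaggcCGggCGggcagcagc
NFKBIA promoter peak, chr14:35873562-35873850, exon and intron: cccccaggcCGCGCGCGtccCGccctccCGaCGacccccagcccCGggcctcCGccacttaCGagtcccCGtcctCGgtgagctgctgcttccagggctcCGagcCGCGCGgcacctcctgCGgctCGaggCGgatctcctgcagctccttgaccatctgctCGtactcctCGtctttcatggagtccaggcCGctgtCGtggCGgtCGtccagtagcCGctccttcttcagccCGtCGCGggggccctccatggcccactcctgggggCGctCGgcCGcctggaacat
NIN promoter peak, chr14:51297570-51297723, intron: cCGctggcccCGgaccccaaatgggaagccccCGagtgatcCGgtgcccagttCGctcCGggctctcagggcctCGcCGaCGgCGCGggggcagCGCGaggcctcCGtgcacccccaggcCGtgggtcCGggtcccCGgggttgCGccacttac
Distal peak near PYGL, chr14:51422042-51422341, no annotated gene: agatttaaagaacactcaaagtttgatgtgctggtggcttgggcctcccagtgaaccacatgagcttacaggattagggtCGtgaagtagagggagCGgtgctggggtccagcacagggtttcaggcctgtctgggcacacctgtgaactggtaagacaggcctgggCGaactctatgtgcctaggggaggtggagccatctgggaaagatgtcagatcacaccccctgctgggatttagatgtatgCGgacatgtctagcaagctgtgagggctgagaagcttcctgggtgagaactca
AHNAK2 peak, chr14:105439291-105439590, intron: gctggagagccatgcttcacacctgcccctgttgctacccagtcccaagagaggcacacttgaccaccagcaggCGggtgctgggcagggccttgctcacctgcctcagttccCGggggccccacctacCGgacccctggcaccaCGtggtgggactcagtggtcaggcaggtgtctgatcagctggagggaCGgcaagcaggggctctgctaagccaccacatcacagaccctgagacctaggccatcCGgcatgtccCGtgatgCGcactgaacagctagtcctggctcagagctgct
AK7 promoter peak, chr14:96858545-96858844, exon and intron: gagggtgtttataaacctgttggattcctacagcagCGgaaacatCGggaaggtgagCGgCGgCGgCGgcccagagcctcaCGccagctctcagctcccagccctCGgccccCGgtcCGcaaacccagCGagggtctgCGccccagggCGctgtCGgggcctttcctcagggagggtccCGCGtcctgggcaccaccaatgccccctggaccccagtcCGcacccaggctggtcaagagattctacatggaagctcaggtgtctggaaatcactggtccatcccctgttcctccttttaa

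The capitals show how the windows differ. There were 20 CG dinucleotides in the 186 bases at ARHGAP5, 32 in the 289 bases at NFKBIA and 18 in the 154 bases at NIN, but 4 in the 300 bases near PYGL and 8 in the 300 bases in AHNAK2. The AK7 window held 17. Over all members, the 300 bp around the summit held on average 23.3 CG dinucleotides in the 537 peaks within 1 kb of a protein-coding start and 6.27 in the 10257 further away, compared with 2.91 in all 300-bp windows of the chromosome. Mean GC content was 64.3% near starts, 51.9% away from them and 40.9% over all windows.

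DU-145 had 122 peaks per Mb of sequenced DNA on chromosome 14, which was 4.38 times the median of its own chromosomes and the highest of them. The same chromosome stood at 0.745 times the median chromosome in COLO-205 (2021 peaks), 1.51 times in OVCAR-3 (3479 peaks) and 1.63 times in SKOV-3 (778 peaks). It held 14.3% of the DU-145 list, against 2.36%, 4.57% and 5.56% of the other lists. Peaks covered 6.60% of its sequence in DU-145 and 1.22% of the rest of the genome in that line. Other lines also had a chromosome far above their median, namely chromosome 13 in COLO-205 (4.11 times) and chromosome 19 in OVCAR-3 (3.69 times).

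**Figure D1:**
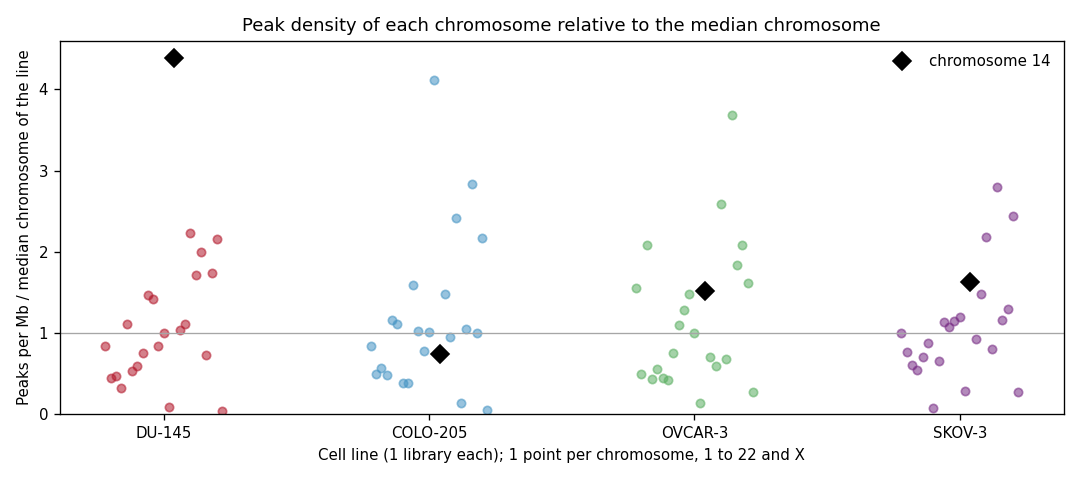
Peaks per Mb of each chromosome (1 to 22 and X) divided by the median chromosome of the same library, with 1 column of points per cell line and chromosome 14 as a black diamond. Chromosome 14 is the highest point of DU-145 at 4.38 and lies between 0.745 and 1.63 in the other lines.

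Along the chromosome the peaks were unevenly spread. In the 88 bins of 1 Mb with at least 0.5 Mb of known sequence, DU-145 had a median of 69 peaks (quartiles 9 and 186) and a maximum of 609. COLO-205 had a median of 14, OVCAR-3 of 19 and SKOV-3 of 3.5. More than 100 peaks were found in 36 bins in DU-145, 8 in OVCAR-3, 1 in SKOV-3 and 0 in COLO-205. After division by each line's density on the other chromosomes, DU-145 was the highest of the lines in 59 of the 88 bins (67.0%), where the same was true of 22.4% of bins over all chromosomes.

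**Figure D2:**
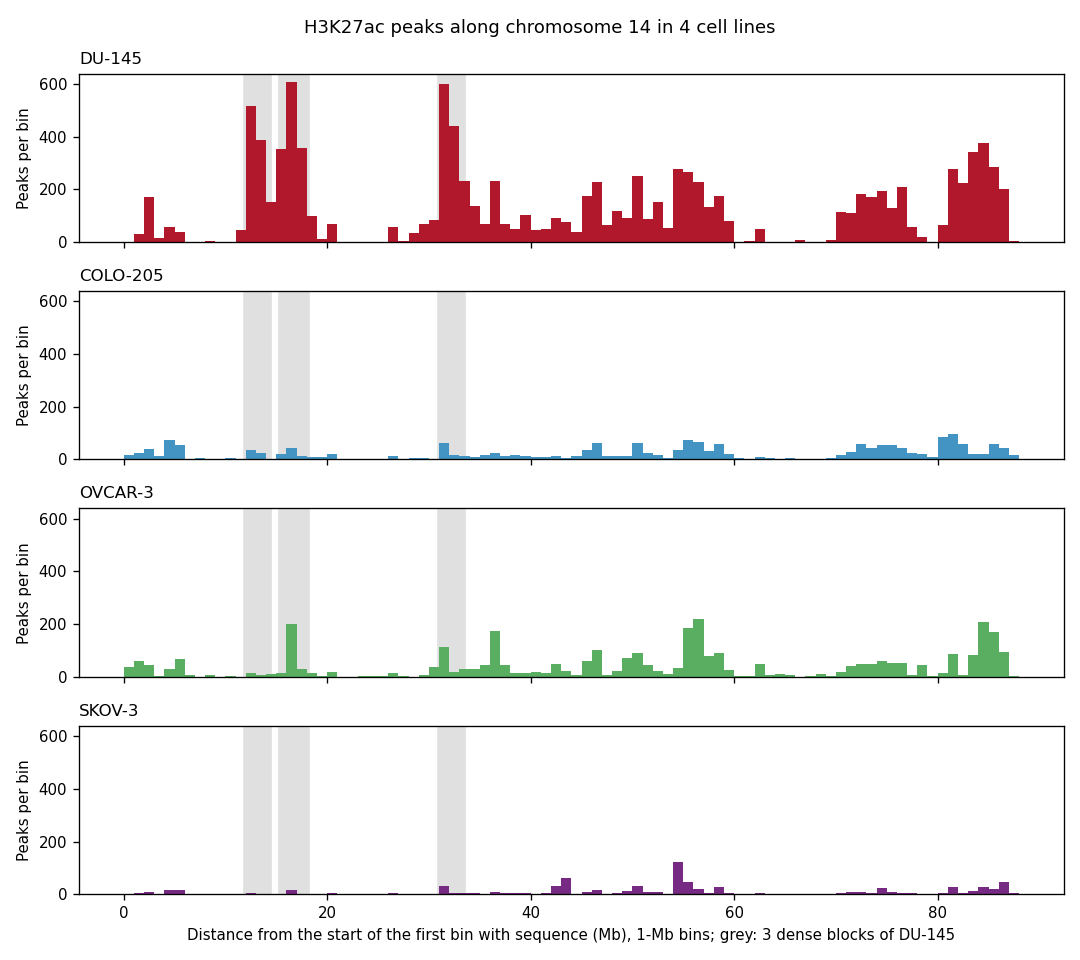
Number of peaks in each 1-Mb bin of chromosome 14 in the 4 lines, on 1 shared scale, against the distance from the first bin with sequence; grey bands are the 3 dense blocks of DU-145. DU-145 reaches 609 peaks in a bin and its 5 highest bins lie in the grey bands, while the highest bins of the other lines hold 220 (OVCAR-3), 122 (SKOV-3) and 97 (COLO-205).

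The 5 bins with the most peaks, named here by the Mb at which they start, all lay in the dense blocks described below. The bin at 35 Mb held 609 DU-145 peaks, against 45 in COLO-205, 200 in OVCAR-3 and 15 in SKOV-3, and peaks covered 51.2% of its bases. It carries the starts of 11 protein-coding genes, among them BAZ1A (a subunit of chromatin-remodelling complexes), SRP54 (the signal recognition particle GTPase) and NFKBIA (the inhibitor that holds NF-κB in the cytoplasm). The bin at 50 Mb held 600 peaks against 63 (COLO-205), 115 (OVCAR-3) and 30 (SKOV-3). It has 16 gene starts, including RPS29 (a ribosomal protein), ARF6 (a small GTPase of membrane traffic) and SOS2 (an exchange factor that activates RAS). The bins at 31, 51 and 32 Mb held 516, 440 and 387 peaks.

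Relative to the highest of the other lines, DU-145 stood out most in the bin at 34 Mb, which held 352 peaks against 20, 15 and 2 and whose relative density was 22.7 times that of the next line. That bin has the annotated starts of only 2 protein-coding genes, EGLN3 (a prolyl hydroxylase that marks HIF-α subunits for degradation) and SPTSSA (a small subunit of serine palmitoyltransferase). The bins at 32, 31, 51 and 36 Mb followed at 20.0, 19.05, 18.0 and 14.3 times. In each of them DU-145 had more peaks than the other lines together.

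At the other end, 16 of the 88 bins had no DU-145 peak (18.2%, against 23.9% of bins over all chromosomes). The longest such run was the 5 bins from 40 to 44 Mb, which hold the starts of LRFN5, a neuronal adhesion protein, and FSCB, a sperm sheath protein, and no other protein-coding start. The remaining empty bins started at 19, 25, 26, 28, 79, 82, 83, 84, 86, 87 and 98 Mb. Over the empty bins COLO-205 had 1 to 16 peaks per bin, OVCAR-3 0 to 36 and SKOV-3 0 to 2. They contain the starts of 9 protein-coding genes. The bin at 25 Mb, with the granzyme genes GZMB and GZMH and CTSG, held 3 peaks in COLO-205 and 7 in OVCAR-3. A few occupied bins were also relatively low in DU-145: the bin at 62 Mb, around HIF1A, held 76 peaks, a relative density of 3.26, while its 60 peaks in SKOV-3 were a relative density of 12.6. The bin at 106 Mb, in the immunoglobulin heavy chain locus, held 2 peaks in DU-145 and between 4 and 15 in the other lines.

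Bin counts of DU-145 followed those of the other lines more closely by rank than by size. Over the 88 bins the Spearman correlation was 0.73 with each of the other lines, while the Pearson correlation was 0.51 (COLO-205), 0.59 (OVCAR-3) and 0.37 (SKOV-3). Over the 76 bins that touch no dense block the Spearman values lay between 0.80 and 0.84 and the Pearson values between 0.55 and 0.77. With the number of protein-coding starts per bin, DU-145 had a Spearman correlation of 0.70 and a Pearson correlation of 0.30, and the other lines had 0.81 to 0.83 and 0.36 to 0.62. These are descriptions over neighbouring bins, which share gene content, GC content and library, and no test was made of them.

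Within these bins the peaks formed dense blocks. A block was defined after the data were seen as a run of at least 20 consecutive 100-kb bins with at least 10 peaks of −log10 q of at least 10 in each. By this rule DU-145 had 3 blocks in the whole genome and all lay on chromosome 14. COLO-205 had 6 (on chromosomes 6 and 13), OVCAR-3 had 3 (on chromosomes 1, 11 and 19) and SKOV-3 had 0. In a looser count, 348 of 883 100-kb bins of chromosome 14 (39.4%) held at least 10 DU-145 peaks, against 7.95% of such bins over all chromosomes. The rule depends on strength, since counting peaks of any q gave 5 blocks on the chromosome instead of 3.

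Block 1 (chr14:30800001-33500000) held 1069 DU-145 peaks in 2.7 Mb, which covered 25.8% of its bases, where COLO-205 had 63, OVCAR-3 33 and SKOV-3 8. Block 2 (chr14:34300001-37200000) held 1377 peaks over 32.7% of its bases, against 81, 247 and 18. Block 3 (chr14:49900001-52500000) held 1276 peaks over 29.9% of its bases, against 87, 154 and 37. Together the blocks were 9.29% of the known sequence and held 34.5% of the members, at 454 peaks per Mb. The rest of the chromosome had 88.3 peaks per Mb, which was still 3.17 times the median chromosome of the line.

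The rule places each edge between a bin with at least 10 peaks of this strength and one with fewer, so a drop there was fixed by the definition. The 6 bins just inside held 13 to 33 such peaks and the 6 just outside 0 to 7. The left side of block 1 was gradual, with 0, 10, 19, 13 and 32 peaks of any strength in successive bins from 30.6 Mb. Counting all peaks, the 30 bins within 500 kb outside the edges held 0 to 14 and the 30 within 500 kb inside held 13 to 70. Blocks 1 and 2 are separated by 0.8 Mb, nearly all of it within NPAS3 (chr14:33403602-34290069), the gene of a transcription factor of neural development. The right edge of block 2 lies just past PAX9 (chr14:37126773-37148567). FOXA1, the forkhead pioneer factor of luminal prostate cells, lies outside it at chr14:38058757-38065264 in a bin with only 10 DU-145 peaks.

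**Figure D3:**
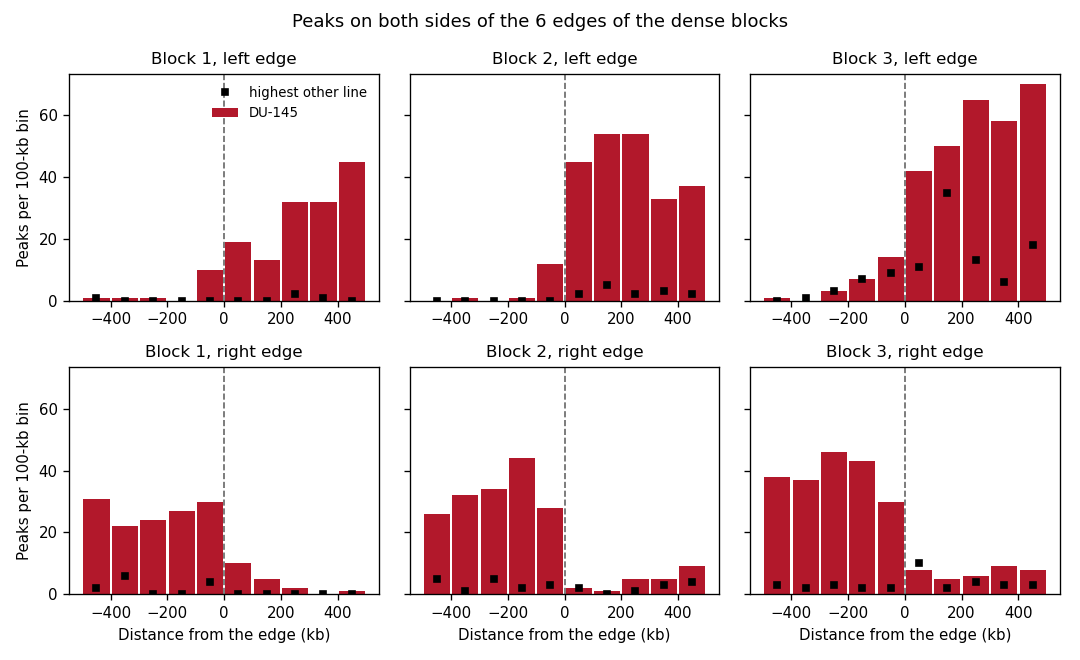
DU-145 peaks in 100-kb bins (red bars) on both sides of each block edge, against distance from the edge in kb, with the highest count among the other lines as black squares. Counts fall from between 19 and 45 in the bin just inside an edge to between 2 and 14 in the bin just outside, counting peaks of any strength, while the definition of the blocks fixes a drop in those with a −log10 q of at least 10.

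Peaks in the blocks were also stronger and wider. Fold enrichment is the summit pileup of reads over the local background, as the authors' peak caller computed it. Its median was 6.73 (quartiles 5.57 and 8.20) for the 3722 block peaks, 4.70 for the 7072 other peaks of the chromosome and 4.41 for the 64674 DU-145 peaks on other chromosomes. Median widths were 474, 347 and 368 bp. The median recovered pileup was 31, 23 and 28 reads and the median recovered background 3.31, 3.81 and 5.36 reads. The background was at the lowest value of the library, 3.31, for 52.2% of block peaks, 32.3% of the other peaks on the chromosome and 13.8% of peaks elsewhere, and its part in the higher fold enrichment was not tested. Since strength entered the definition of the blocks, these values describe them and support nothing.

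**Figure D4:**
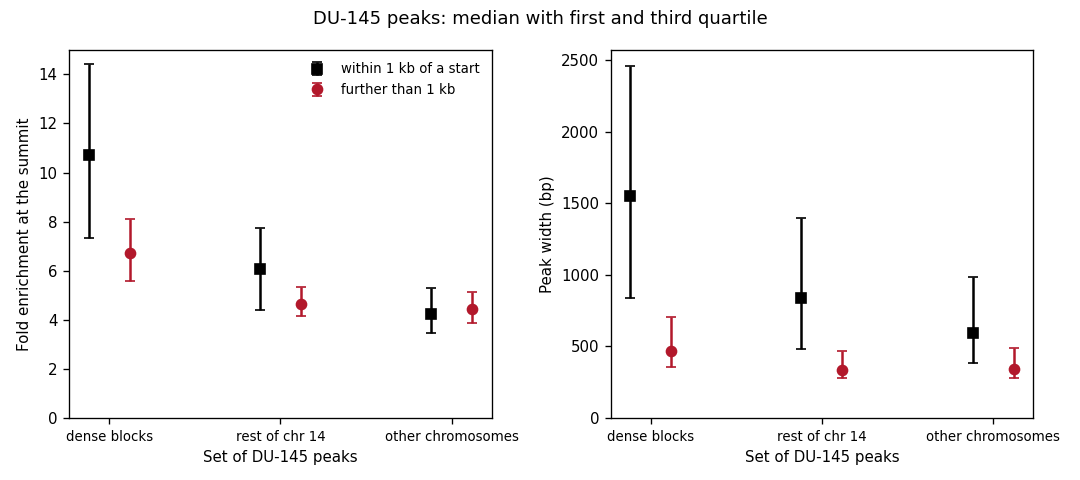
Median fold enrichment and median width (bp) of DU-145 peaks, with bars from the first to the third quartile, in the 3 dense blocks, the rest of chromosome 14 and the other chromosomes. Promoter peaks (black) fall from a median fold enrichment of 10.7 in the blocks to 6.08 and 4.23, and peaks further from a start (red) from 6.73 to 4.64 and 4.43.

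Most of the members lay away from promoters. Only 537 of them (4.97%) were within 1 kb of a protein-coding start, compared with 20.3% of DU-145 peaks elsewhere, and in the blocks it was 67 of 3722 (1.80%). Of the summits 66.7% were in introns, 23.7% between genes and 9.62% in exons, while the known bases of the chromosome are 59.0% intron, 35.0% intergenic and 5.99% exon. The median gap to the next peak was 879 bp in the blocks, 2260 bp in the rest of the chromosome and 3381 bp elsewhere. Peaks of another line overlapped 22.6% of the members (95% exact binomial interval 21.9 to 23.4, counting error only), against 40.2% of DU-145 peaks elsewhere. The share was 12.7% in the blocks and 27.9% outside them. Near starts the share of all members was 78.8% (80.3% for DU-145 peaks elsewhere) and away from starts 19.7% (30.0% elsewhere). Seen from the other lists, 48.6% of the COLO-205, 61.1% of the OVCAR-3 and 78.5% of the SKOV-3 peaks of the chromosome overlapped a DU-145 peak, against 16.6%, 30.7% and 67.3% on the other chromosomes.

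Of the 616 protein-coding genes of the chromosome, 445 had a DU-145 peak within 1 kb of the start (72.2%, interval 68.5 to 75.7, against 53.8% of genes over all chromosomes). The counts were 306 or 49.7% in COLO-205 (42.3% over all chromosomes), 405 or 65.7% in OVCAR-3 (54.0%) and 247 or 40.1% in SKOV-3 (27.1%), so the share on this chromosome was above that of the whole list in each line. In DU-145 60 of the 61 genes that start in a block had a promoter peak, and 385 of the 555 outside. Of 648 long non-coding RNA genes 279 had one (43.1%, against 23.3% over all chromosomes), as did 55 of the 66 that start in a block. The shares on this chromosome were 28.7% in OVCAR-3 (23.4% over all chromosomes), 21.3% in COLO-205 (21.3%) and 13.9% in SKOV-3 (10.3%).

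The strongest promoter peaks of the chromosome all lay in the blocks, and all 10 overlapped a peak in each of the other lines. ARHGAP5, a GTPase-activating protein, had the highest −log10 q, 237, at 22.6-fold enrichment, while COLO-205 reached 27.5, OVCAR-3 48.3 and SKOV-3 14.8. The peak shared by STRN3, a scaffold of the STRIPAK phosphatase complex, and AP4S1, a subunit of an adaptor complex, reached 236, against 49.3, 91.6 and 30.7. At NFKBIA the −log10 q was 218 in DU-145 and 319 in OVCAR-3, with 34.5 in COLO-205 and 37.02 in SKOV-3. NIN, a centrosome protein, had 188 in DU-145 against 25.4, 40.2 and 16.2. These values depend on the depth of each library and set only the order within a library.

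The next promoters were those of SOS2 (187), of RPL36AL and MGAT2, which share a peak (176), and of EGLN3 and SPTSSA, which share another (173). The EGLN3 gene start used there is not the start of a protein-coding EGLN3 transcript. EAPP, a protein that binds E2F, KLHDC2, a substrate receptor of a ubiquitin ligase, and DNAAF2, which assembles dynein arms, followed at 159, 153 and 152. Outside the blocks the highest −log10 q of a promoter peak was 96.8.

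To compare strength between libraries, the recovered pileups were compared at promoters with a peak in both lines. Against OVCAR-3, the median log2 ratio of DU-145 to OVCAR-3 pileup was 0.91 at 47 promoters in the blocks, −0.19 at 343 on the rest of the chromosome and −0.37 at 8869 elsewhere. Against COLO-205 the medians were 1.88 at 43 block promoters, 1.04 at 247 and 0.59 at 6540. For SKOV-3 they were 2.12 at 34 block promoters, 1.27 at 212 and 0.91 at 4927. The medians were highest in the blocks in all 3 pairs, but the blocks were defined by the strength of DU-145 peaks, so these values describe them and support nothing. The DU-145 background at these promoters had medians of 11.4 reads in the blocks and 14.2 reads on other chromosomes for the OVCAR-3 pairs. The pairs share the DU-145 library, so they are not independent of each other.

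**Figure D5:**
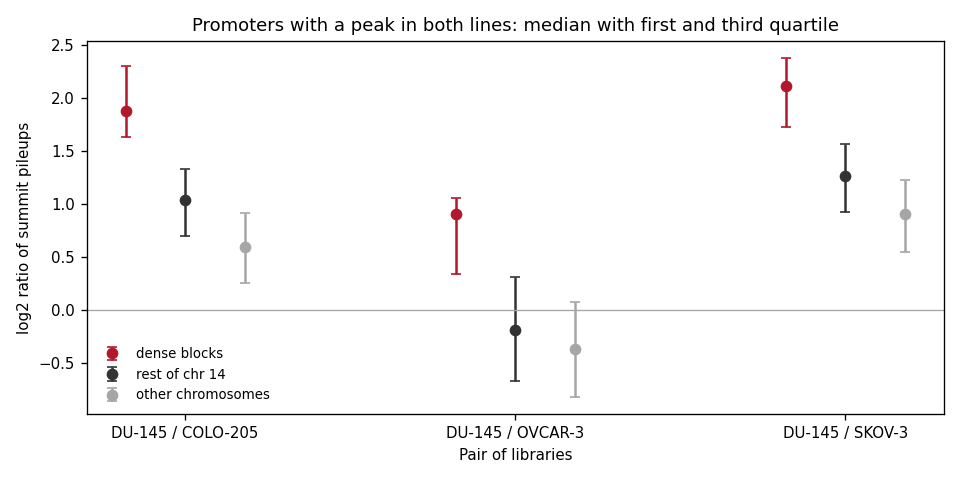
Median log2 ratio of the DU-145 summit pileup to that of each other line at promoters with a peak in both, with bars from the first to the third quartile, for the dense blocks (red), the rest of chromosome 14 (dark grey) and the other chromosomes (light grey). Block promoters are at 1.88, 0.91 and 2.12, above the other sets in every pair.

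Several gene bodies were filled with peaks. EGLN3 (chr14:34393433-34931980) held 254 DU-145 summits over 539 kb of annotated length, against 12 in COLO-205, 10 in OVCAR-3 and 2 in SKOV-3. A peak lay at the EGLN3 gene start in 4 lines but at its protein-coding transcript starts in only 3. That gene start therefore belongs to no protein-coding transcript, and the annotated length may exceed that of the coding gene. AKAP6 (chr14:32798504-33306890), an anchor of protein kinase A in muscle and neurons, held 148 although it was the only protein-coding gene starting in a block with no DU-145 promoter peak, and none of the lines had a peak at its start. OVCAR-3 had 9 peaks in its body, COLO-205 had 1 and SKOV-3 had 0. NUBPL, an assembly factor of respiratory complex I, held 3.91 DU-145 peaks per 10 kb over its 371 kb, and in that whole length COLO-205 held 11 peaks, OVCAR-3 1 and SKOV-3 0. Per 10 kb of annotated length, BAZ1A held 7.08 peaks, POLE2 7.13, EGLN3 4.72 and AKAP6 2.91.

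The next genes by number were ENSG00000258790, which spans PRORP and PSMA6 (108 peaks), RAD51B and RALGAPA1 (103 each), FRMD6 (93), BAZ1A (87), PRORP (85) and HEATR5A (81). RAD51B, which acts in homologous recombination, was the only one of them outside the blocks, and OVCAR-3 held 85 peaks in it. Overlapping genes count the same peaks, as PRORP and ENSG00000258790 do.

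Among peaks more than 1 kb from a protein-coding start the highest −log10 q was 220, at chr14:32670234-32672015 in block 1, whose summit lies in an exon of the non-coding gene ENSG00000286527. The strongest peaks more than 1 kb from every annotated gene start, non-coding genes included, were mostly in the blocks as well, 8 of the 10 with the highest −log10 q. The first of these, chr14:51421791-51422622, lies between genes 10991 bases from the start of PYGL, the liver glycogen phosphorylase, at a −log10 q of 159 and 29.5-fold enrichment, and among the other lines it overlapped a peak of OVCAR-3 alone. The fourth, chr14:32479911-32480655, lies in an intron of the non-coding gene ENSG00000258386, 65038 bases from the start of ARHGAP5 (−log10 q 116), and was the only one of the 10 with no overlapping peak in another line. The pair outside the blocks lay in LINC01303 and in KLC1 and overlapped peaks of all the other lines. Others lay in an exon of RPS29, in SFTA3, LINC01588 and ENSG00000258535 and in the neighbourhood of ARF6. Distances here were taken to gene starts, and the start of another transcript of a gene may lie closer.

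The widest member was chr14:105433914-105447521, 13608 bp over the start and first part of AHNAK2, a giant scaffold protein, with a fold enrichment of 7.73. A peak of 11141 bp lay in an intron of SNX6, a sorting nexin, and one of 7150 bp lay between genes, 58535 bases from the start of PSMA6. INF2, a formin that remodels actin, had peaks of 6975 and 6216 bp, the latter at its promoter. Of these 5 peaks the SNX6 peak overlapped only OVCAR-3 among the other lines, and the remaining ones overlapped a peak in all of them.

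A promoter peak in DU-145 and in no other line was found at 35 genes (5.68%, against 5.01% of genes over all chromosomes), and at 70 when the strongest 14001 peaks of each library were used. The highest −log10 q values were at AK7, an adenylate kinase of ciliated cells (46.4), ACOT2, a mitochondrial acyl-CoA thioesterase (32.9), the kinase gene CDKL1 (26.8), the orphan receptor gene GPR135 (23.4) and SYNE3, a nuclear envelope nesprin (21.6). The others of the first 10 were PSMA6 (21.2), GPR33 (20.3), HHIPL1 (19.9), RDH12, a retinol dehydrogenase (19.3), and SERPINA3, which encodes α1-antichymotrypsin (18.7). Some of these calls depend on which start is used. When the starts of all protein-coding transcripts counted, 22 of the 35 were still found in DU-145 alone and 11 had a peak in another line, among them ACOT2, CDKL1, SYNE3 and PSMA6. The opposite case, a peak in the other 3 lines and not in DU-145, was found at 0 of the 616 genes (0.600% of genes over all chromosomes, 121 genes).

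Gene lists of the chromosome are described by the members with a DU-145 promoter peak, beside a share of 72.2% for all protein-coding genes of the chromosome and 53.8% over all chromosomes. All 15 housekeeping genes and all 9 genes of DNA repair and telomeres had one, including HSP90AA1, EIF5, MLH3 and XRCC3. In these 2 lists OVCAR-3 marked 15 and 8, SKOV-3 13 and 7, and COLO-205 11 and 6. A DU-145 peak was also found at 11 of 12 signal and stress genes, all but BMP4, and 7 of 8 proteasome genes, all but the thymus-specific PSMB11. OVCAR-3 marked 11 and 6 of these, COLO-205 8 and 6, and SKOV-3 7 and 6. The cytoskeleton and adhesion list had 7 of 8, against 8 in OVCAR-3, 4 in COLO-205 and 3 in SKOV-3. Its exception was LGALS3, which had a peak in OVCAR-3 alone (−log10 q 57.7). Of the 4 immediate early factors FOS, JDP2 and ZFP36L1 had a peak in every line, and BATF in COLO-205 alone.

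Lineage transcription factors were mixed, with 10 of 17 marked in DU-145, 10 in OVCAR-3, 7 in COLO-205 and 2 in SKOV-3. At the right end of block 2, NKX2-1, the factor of thyroid and lung, had a peak of 5958 bp with a −log10 q of 95.1 in DU-145 and 36.9 in OVCAR-3. Its neighbours NKX2-8 and PAX9, a factor of pharyngeal pouches and teeth, had 118 and 41.3 in DU-145. NKX2-8 had 13.7 in OVCAR-3 and 7.0 in COLO-205, and PAX9 had 7.3 in COLO-205 alone among the other lines. FOXA1 reached 71.9 in DU-145, against 24.6 (COLO-205) and 17.6 (OVCAR-3), and SKOV-3 had no peak within 1 kb of its start but 1 in its body. NPAS3 had 92.3 in OVCAR-3 and 7.92 in DU-145.

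Several clusters of tissue-restricted genes were largely unmarked, but the imprinted DLK1-DIO3 domain was not. There was no DU-145 promoter peak at the 27 olfactory receptor genes, the 4 granzyme and mast cell protease genes or the heart myosins MYH6 and MYH7, and none in any other line. T cell receptor segments had a peak at 2 of 114 (the neighbours TRAJ6 and TRAJ7, both at 8.55), against 0 in each of the other lines. Immunoglobulin heavy chain segments had a peak at 1 of 89, with 1 in SKOV-3, 4 in OVCAR-3 and 6 in COLO-205. The serpin cluster had 3 of the 9 genes listed, SERPINA1 (30.3), SERPINA3 (18.7) and SERPINA12 (7.5), against 1 in OVCAR-3 and 0 in COLO-205 and SKOV-3. SERPINA2, a gene of the cluster outside the list, had a promoter peak in DU-145 alone (4.82). In the imprinted DLK1-DIO3 domain 5 of 8 were marked, against 3 in COLO-205, 1 in OVCAR-3 and 0 in SKOV-3. They were BEGAIN (65.5), RTL1 (15.4), DIO3 (8.4), MEG8 (6.3) and DIO3OS (4.2), and DLK1 and MEG3 were marked in no line. The ribonuclease A cluster had 3 of 13, against 3 in OVCAR-3, 2 in COLO-205 and 0 in SKOV-3, and in it ANG and RNASE4 have nearby starts and share a peak (75.9). Over all lists 76 of 339 genes were marked, compared with 70 (OVCAR-3), 57 (COLO-205) and 42 (SKOV-3).

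Short motifs were counted in the 300 bp around each summit, on both strands. TGANTCA, a loose pattern that includes AP-1 sites, was counted with any base at N. It occurred in 6.68% of the members and in 6.81% of DU-145 peaks elsewhere, below the 9.21% of all 300-bp windows of the chromosome. Mean GC content was 52.6% in the members and 40.9% in those windows, and its part in these shares was not tested. The GC-rich letters GGGCGGG of SP and KLF factors occurred in 5.10% of the members and 12.1% of peaks elsewhere, and in 1.55% of all windows. Near starts the shares of GGGCGGG were 33.3% on the chromosome and 34.4% elsewhere, and away from starts 3.63% and 6.42%. The forkhead letters TGTTTAC were found in 1.82% of members, CCGGAAG of ETS factors in 1.78% and AAGATGG of YY1 in 5.75%. For DU-145 peaks elsewhere these shares were 1.61%, 3.04% and 5.07%, and for all windows of the chromosome 4.65%, 0.710% and 6.06%. A match is a description of the sequence and not a bound site.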

How the data were processed

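H3K27ac ChIP-seq peak lists of 4 cell lines were analysed, with 1 library per line. The authors aligned reads to hg19 with Bowtie2 2.1.0 and ran MACS2 2.1.0.20150603 in narrow mode on every library (versions from the submitters' processing notes) at a q-value below 0.001. For each peak the deposited lists hold a score (10 times −log10 q), a fold enrichment, a −log10 p, a −log10 q and the summit position, each relative to its own library. Although the study describes joining neighbours closer than 350 bp, many closer pairs remain in the lists, so peaks were used as deposited and joining them was an alternative. Total read numbers were not given in the sources used here. The lowest recovered background, which rises with depth, was 3.31 reads in DU-145, 2.36 in COLO-205, 2.52 in OVCAR-3 and 1.59 in SKOV-3.

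Pileup and background at each summit were recovered from the fold enrichment, read as (pileup + 1)/(background + 1), and the Poisson −log10 p, within 0.001 (100% of DU-145 and SKOV-3, 99.9988% of COLO-205 and 99.9172% of OVCAR-3 peaks), and the recovery was tested on simulated data. Genes came from GENCODE 44 on GRCh37, with a promoter as 1 kb either side of the gene start, and bins were assigned by summit. Overlap meant at least 1 base. Intervals are exact Clopper-Pearson 95% intervals and cover counting error only. With no replicates no test was run. Some genes and the peaks in them are not reported here. Members and gene lists were chosen with earlier results of these data known. The bins, peaks and genes named were the 5 bins with the most peaks and the 5 highest and lowest relative to other lines, the 10 genes with the most peaks, the 10 strongest promoter, distal and DU-145-only promoter peaks, the 5 widest peaks and the members of the lists. POLE2, the peak in ENSG00000286527 and the bins at 62 and 106 Mb were named after their values were seen. Python 3.11.15, numpy 2.4.6, scipy 1.17.1 and pandas 2.3.3 were used.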

Additional observations from a re-analysis of the deposited data

How the results depend on the processing

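With 1 library per line, no spread between replicates limits these values, and the lists give no read number. No paired analysis was possible because each line has 1 library. The density of chromosome 14 in DU-145 relative to the median chromosome was 4.33 to 5.63 under the planned settings and 3.17 outside the 3 blocks, and DU-145 was the highest line in 54 to 60 of the 1-Mb bins and in 47 of those outside the blocks. Keeping only peaks with a −log10 q of at least 10 left 5389 peaks over 3875790 bases, with a median width of 505 bp, a median fold enrichment of 6.49, a pileup of 32, a background of 3.47, 8.16% near starts, 16.5% shared with another line and 66.2% of promoters marked. With the strongest 14001 peaks of each library these became 2397 peaks, 2369930 bases, 720 bp, 8.12, 41, 3.78, 14.9%, 18.6% and 58.8%, with at most 329 peaks in a bin and 70 promoters marked in DU-145 alone. Merging gave a median width of 405 bp and 23.8% shared. A distance of 2.5 kb gave 7.87% of peaks near starts and 77.3% of promoters marked, and all transcript starts gave 8.16% and 77.1%. Requiring 50% of the peak to overlap left 14.5% shared. Outside the blocks, a setting chosen after seeing the data, there were 7072 peaks over 3409390 bases, with a median width of 347 bp, a fold enrichment of 4.70, 6.65% near starts and 27.9% shared. Peaks of any q gave 5 dense blocks, and 15 or 5 peaks per bin or merging gave 3, 4 and 3, also chosen after seeing the data. The share of peaks with TGANTCA was 6.30% to 7.03%.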
